A study of Homo sapiens with 14 samples.

Results

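The genes described here are the collagen chains, the laminin chains and the integrin subunits on the array. Members were chosen by symbol: every probe annotated to a collagen chain, a laminin chain, or an integrin alpha or beta subunit, without pseudogenes and without binding proteins of integrins. There were 78 such genes (43 collagens, 10 laminins, 17 alpha subunits and 8 beta subunits), measured by 129 probes, among 20046 named genes. Of these, 53 (28, 8, 12 and 5 in that order) had a probe above background on at least 2 arrays and were tested, among 12742 tested genes. The cells were WM9, an established human melanoma line, and total RNA was measured on 14 arrays. In 6 groups the cells had been exposed to 10 µM PLX4720, an inhibitor of the kinase BRAF, for 12, 24, 48, 60, 72 or 96 h. The control group received DMSO and was collected at 96 h, so time in culture and exposure cannot be told apart in the comparisons of earlier times with DMSO. Each group had 2 biological replicates, all of the same line, and no other line or drug was analysed here.

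Collagens are triple helices of 3 chains that form fibrils, networks or microfibrils outside the cell. Laminins are cross-shaped trimers of an alpha, a beta and a gamma chain that, with the network of collagen IV, make up basement membranes. Integrins are pairs of an alpha and a beta subunit in the cell membrane. They bind these proteins outside the cell and connect them to the actin cytoskeleton, and in melanoma they are known for their part in the contact of tumour cells with the dermal matrix.

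Levels are given below as log2 normalized intensity of the 1 probe used for a gene, the 2 replicates of a group in their numbered order. Differences are log2 differences between group means with the standard error (SE) of the limma fit, and a gene was called when its Benjamini-Hochberg adjusted p over all tested genes was below 0.05. Because a probe's brightness depends on its own binding, levels are compared between groups and never between genes. In bulk RNA, fewer cells that make a transcript and less of it per cell cannot be told apart. Before normalization the median signal of an array was 366 to 370 with DMSO and 232 to 316 with PLX4720, and 37.5 to 41.1% of probes were above background. The DMSO replicates lay further apart than the others: the SD of the replicate difference over all genes was 0.559 (log2) for DMSO, and 0.301 to 0.348 for the PLX4720 groups. Of 10 melanocyte and melanoma markers, 9 were tested and 5, among them MITF and SOX10, were above background on all 14 arrays. Their summed signal was 18976 to 25347 in DMSO, 20596 to 21022 at 12 h and 36138 to 42280 at 96 h. Single markers did not follow the sum: the fitted log2 difference from DMSO was 0.34 at 12 h and 4.96 at 96 h for PMEL, -2.15 and 1.42 for TYRP1, and -2.46 and -2.53 for S100B. Of 8 fibroblast markers 4 were tested, and 2 of these, DCN and LUM, were above background on all 14 arrays. Their summed signal, over the 4 tested, was 1321 to 1553 in DMSO and 1102 to 1205 at 96 h. Single markers differed: the fitted log2 difference from DMSO at 96 h was 0.31 for DCN, -0.17 for LUM, -0.68 for FAP and -1.31 for PDGFRB. Of 6 endothelial markers 2 were tested, and none was above background on all 14 arrays. Of 6 keratinocyte markers 2 were tested (KRT10 on all 14 arrays), and of 8 leukocyte markers 4, with a summed signal of 622 to 660 in DMSO and 945 to 996 at 96 h. These 4 did not follow their sum alike: the fitted log2 difference from DMSO at 96 h was 1.42 for CD2, 0.57 for CD79A, 0.22 for CD14 and -0.61 for LYZ. All samples were of the WM9 line, and the part of other cell types in the results was not tested.

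At 12 h, falls outnumbered rises among collagens, laminins and integrins, and rises were added at later times. Relative to DMSO, 2 of the 53 tested members were higher and 15 lower at 12 h (3.77% and 28.3% of members), where 9% of all tested genes were higher and 8.26% lower. At 24 h, 5 were higher and 13 lower, with 11.5% and 9.31% of all genes. At 48 h the counts were 10 and 14, with 13.9% and 11.2% of all genes. At 60 h they were 11 and 17, with 14.1% and 11.1%. At 72 h they were 12 and 19, with 15.1% and 12.7%. At 96 h, 14 were higher and 17 lower (26.4% and 32.1% of members), with 16.4% and 13.5% of all genes. The share of members lower than DMSO was above that of all genes at each of the 6 times, and the share higher was below it at 12 and 24 h and above it from 48 h. All 6 comparisons share the same 2 DMSO arrays.

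Within the exposed cells the balance was the other way. From 12 h to 96 h, 17 members rose and 8 fell (32.1% and 15.1% of members), where 15.1% of all genes rose and 14% fell. The F test among the 6 PLX4720 times called 28 of 53 members against 28.1% of all genes. It compares no DMSO level, but the DMSO arrays entered its estimate of the spread. The median log2 difference of the members from DMSO was -0.36 at 12 h and -0.18 at 96 h, beside 0.06 and 0.07 for all tested genes. The split depended on the scaling of the arrays. With arrays scaled to equal medians in place of quantile normalization, the median of all genes moved to -0.14 at 12 h and -0.27 at 96 h. The split of higher against lower members then became 0 against 20 (12 h), 2 against 14 (24 h), 7 against 16 (48 h), 7 against 19 (60 h), 7 against 22 (72 h) and 8 against 25 (96 h). From 12 h to 96 h, 12 rose and 7 fell under that scaling. The shares of all genes in each direction under that scaling are not given here. These counts therefore cannot be set against the shares above. Of the 53 tested members, 38 were above background on all 14 arrays. Some of the others passed the filter only in the groups in which they were bright, so the counts describe the tested members and support nothing further.

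**Figure D1:**
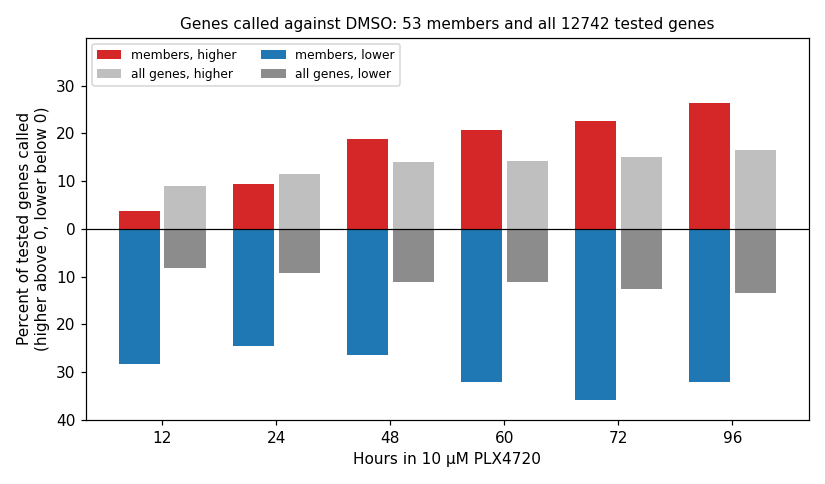
Percent of tested genes called higher than DMSO (bars above 0) or lower (bars below 0) after each number of hours in 10 µM PLX4720 (horizontal axis, evenly spaced times), for the 53 members in colour and for all 12742 tested genes in grey. At 12 h, 3.77% of members were higher and 28.3% lower, and at 96 h 26.4% and 32.1%.

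**Figure D2:**
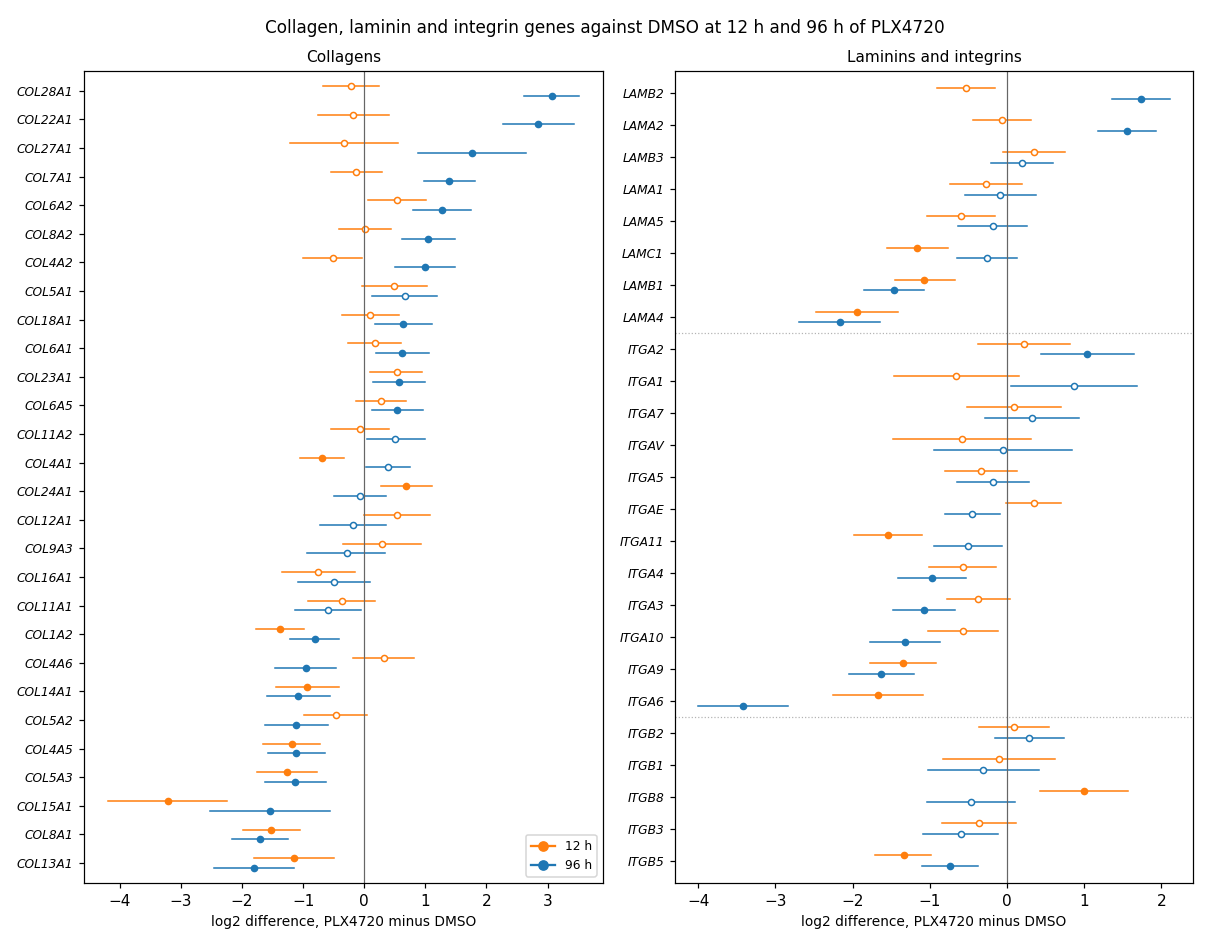
Log2 difference from DMSO (horizontal axis) of each tested member at 12 h (orange) and 96 h (blue) of PLX4720, collagens on the left, laminins, alpha subunits and beta subunits from top to bottom on the right. Points are fitted differences of 2 against 2 arrays, bars their 95% confidence intervals, and filled points were called. COL28A1, COL22A1 and LAMB2 stood to the right of 0 at 96 h only, and ITGA6 lay at -3.42.

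Laminin chains moved in opposite directions. LAMA4, an alpha chain of vessel and soft tissue laminins, and LAMB1, the widely used first beta chain, were called lower than DMSO at all 6 times for LAMA4 and at all but 24 h for LAMB1. LAMC1, the gamma chain shared by most laminins, was lower at 12 h and closer to DMSO later. LAMB2, the beta chain that takes the place of LAMB1 in laminins of the kidney filter and the neuromuscular junction, and LAMA2, the alpha chain of muscle basement membrane, rose during exposure. Of 8 tested laminins, none was higher and 3 were lower at 12 h, and 2 were higher and 2 lower at 96 h. The share lower at 12 h was 37.5%, where 9% of all tested genes were higher and 8.26% lower. At 96 h the shares were 25% higher and 25% lower, beside 16.4% and 13.5% of all genes.

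The level of LAMB2 was 11.29 and 11.56 in DMSO, then 10.87 and 10.92 (12 h), 12.12 and 11.97 (24 h), 12.6 and 12.55 (48 h), 12.9 and 12.69 (60 h), 13.06 and 12.83 (72 h) and 13.26 and 13.06 (96 h). Both arrays at 12 h lay below both DMSO arrays, and every array from 24 h on lay above them. On the log2 scale the difference was 1.73 ± 0.18 (SE, adjusted p = 1.08e-05) at 96 h against DMSO, 3.33-fold higher, and 2.27 ± 0.18 (SE, adjusted p = 9.37e-07) from 12 h to 96 h. LAMA2 stood at 7.06 and 7.22 in DMSO, then 7.13 and 7.02 (12 h), 8.09 and 7.81 (24 h), 8.89 and 8.81 (48 h), 8.99 and 8.95 (60 h), 9.13 and 8.9 (72 h) and 8.79 and 8.59 (96 h). It was not above background in DMSO or at 12 h and was above it on all later arrays. The log2 difference from DMSO at 96 h was 1.55 ± 0.17 (SE, adjusted p = 2.51e-05), at least 2.57-fold higher, and both of its detected probes rose.

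For LAMA4 the values were 12.99 and 12.57 in DMSO, then 11 and 10.68 (12 h), 11.38 and 10.79 (24 h), 11.63 and 11.42 (48 h), 11.43 and 10.88 (60 h), 11.06 and 11.07 (72 h) and 10.65 and 10.56 (96 h). No exposed array reached either DMSO array. The fitted log2 difference was -1.94 ± 0.25 (SE, adjusted p = 0.00016) at 12 h and -2.17 ± 0.25 (SE, adjusted p = 2.68e-05) at 96 h, where it was 4.51-fold lower. The other detected probe of LAMA4 gave smaller differences, -0.91 at 12 h and -1.42 at 96 h. LAMB1 gave 12.96 and 12.69 in DMSO, then 11.76 and 11.75 (12 h), 12.4 and 12.24 (24 h), 12.02 and 11.97 (48 h), 11.89 and 11.66 (60 h), 11.69 and 11.4 (72 h) and 11.43 and 11.28 (96 h). Its exposed arrays lay below both DMSO arrays at all 6 times, and it was called lower at 12, 48, 60, 72 and 96 h. In log2 units the difference was -1.07 ± 0.18 (SE, adjusted p = 0.0012) at 12 h and -1.47 ± 0.18 (SE, adjusted p = 5.07e-05) at 96 h. The other detected probe of LAMB1 gave larger differences, -2.29 at 12 h and -2.25 at 96 h.

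LAMC1 gave 14.74 and 14.55 in DMSO, then 13.34 and 13.63 (12 h), 14.1 and 13.89 (24 h), 14.52 and 14.58 (48 h), 14.45 and 14.39 (60 h), 14.48 and 14.42 (72 h) and 14.23 and 14.54 (96 h). Its 12 h arrays were the lowest of all 14. Its log2 difference was -1.16 ± 0.18 (SE, adjusted p = 0.000688) at 12 h and -0.26 ± 0.18 (SE, adjusted p = 0.304) at 96 h, and the rise from 12 h to 96 h was 0.9 ± 0.18 (SE, adjusted p = 0.00203). The other alpha chains LAMA1 and LAMA5, and LAMB3, a chain of epithelial laminin, were called in neither direction at 12 h or 96 h. LAMA5 and LAMB3 passed the F test among times (adjusted p = 0.00919 and 0.0126) with their highest means at 24 h. The calls named here for laminins at 12 h, at 96 h and from 12 h to 96 h held under each of the 13 alternatives run for each comparison. LAMB4 and LAMC3 had no probe above background on 2 arrays.

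**Figure D3:**
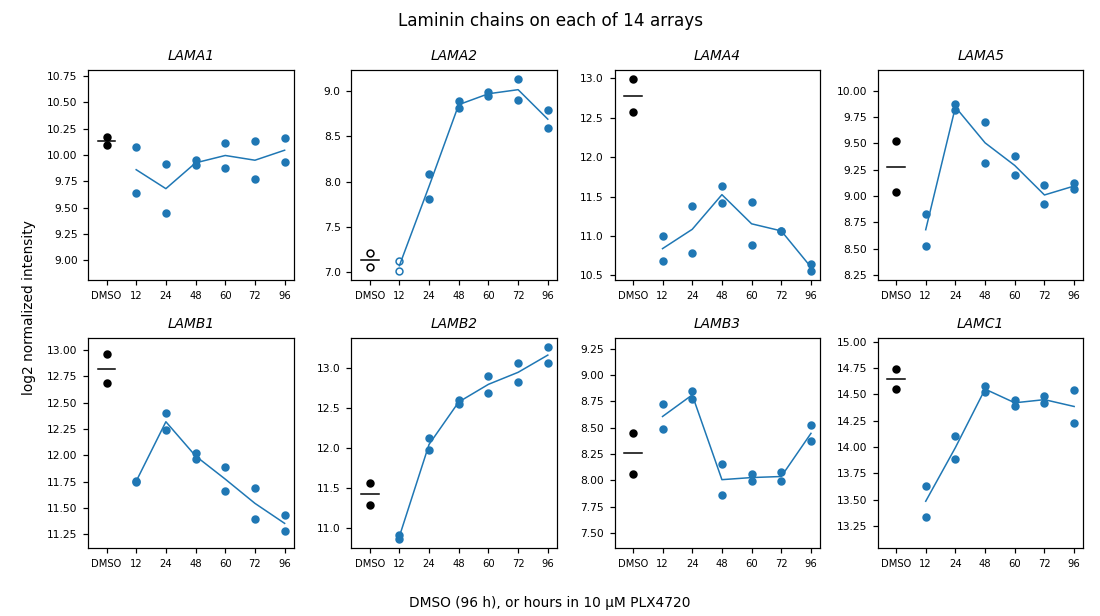
Log2 normalized intensity (vertical axis, each panel with its own range) of the 8 tested laminin chains on each array, for DMSO at 96 h (black) and for hours in 10 µM PLX4720 (blue, evenly spaced). Points are single arrays, open where the probe was not above background; lines join the means of 2 arrays. LAMB2 and LAMA2 climb after 12 h, and LAMA4 and LAMB1 stay under DMSO.

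Of 3 tested alpha subunits that bind laminin, ITGA6 and ITGA3 fell, and ITGA6 had the largest fall of any tested member at 96 h. ITGA6 pairs with beta 1 or beta 4, and ITGA3 with beta 1. Over all 12 tested alpha subunits, none was higher and 3 were lower at 12 h, and 1 was higher and 5 were lower at 96 h. At 12 h, 25% were thus lower, where 9% of all tested genes were higher and 8.26% lower. At 96 h the shares were 8.33% higher and 41.7% lower, beside 16.4% and 13.5% of all genes. ITGA6 read 11.5 and 10.71 in DMSO, then 9.72 and 9.16 (12 h), 9.46 and 9.08 (24 h), 8.57 and 8.51 (48 h), 8.37 and 8.28 (60 h), 7.76 and 7.96 (72 h) and 7.88 and 7.5 (96 h). Both DMSO arrays lay above all 12 exposed arrays, and the group means were lower at each later time. The log2 difference from DMSO was -1.67 ± 0.27 (SE, adjusted p = 0.000901) at 12 h and -3.42 ± 0.27 (SE, adjusted p = 1.48e-06) at 96 h, 10.7-fold lower. The difference between 96 h and 12 h was -1.75 ± 0.27 (SE, adjusted p = 0.000302), and both detected probes were lower at 96 h than in DMSO. From 12 h to 96 h the other detected probe gave -0.85 and was not called (limma, adjusted p = 0.155). ITGA3 was lower at 96 h by a log2 difference of -1.07 ± 0.19 (SE, adjusted p = 0.000928), and was called lower from 24 h on. ITGA7, the muscle laminin subunit, was close to background and was not called.

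Alpha subunits that bind collagen, all partners of beta 1, did not move as 1 group. From 12 h to 96 h ITGA1, ITGA2 and ITGA11 rose and ITGA10 fell. Against DMSO, ITGA2 was called higher at 24, 48, 60, 72 and 96 h, with its highest mean at 72 h. ITGA2 was 10.22 and 9.23 in DMSO, then 9.88 and 10.01 (12 h), 10.96 and 10.93 (24 h), 11.59 and 11.12 (48 h), 11.46 and 11.08 (60 h), 11.49 and 11.27 (72 h) and 10.82 and 10.71 (96 h). Its DMSO arrays differed by almost 1 log2 unit, and both arrays of each group from 24 h on lay above both. The log2 difference was 1.04 ± 0.28 (SE, adjusted p = 0.0127) at 96 h against DMSO and 0.82 ± 0.28 (SE, adjusted p = 0.0399) from 12 h to 96 h. The first of these calls was lost with median scaling, without the second DMSO array and without the first 96 h array, with adjusted p up to 0.25. The second was lost with median scaling, with no filter and without any 1 of the 4 arrays (up to 0.273). ITGA1 was 9.81 and 8.1 in DMSO, then 8.13 and 8.47 (12 h), 8.96 and 9 (24 h), 10 and 9.98 (48 h), 10.01 and 10.08 (60 h), 10.27 and 10.31 (72 h) and 9.69 and 9.96 (96 h). The DMSO replicates spanned 1.71 log2 units, so the comparison with DMSO was uncertain; it was called at 72 h only (1.33). The rise from 12 h to 96 h was 1.53 ± 0.38 (SE, adjusted p = 0.00811), and it was lost with median scaling, without the first 12 h array or without the second 96 h array (adjusted p up to 0.0596).

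ITGA11, the subunit that binds fibrillar collagen I, fell and then partly returned. Its levels were 10.04 and 10.49 in DMSO, then 8.55 and 8.9 (12 h), 8.78 and 8.91 (24 h), 9.08 and 9.02 (48 h), 9.43 and 9.63 (60 h), 9.29 and 9.62 (72 h) and 9.8 and 9.73 (96 h). The 12 h arrays were lowest. On the log2 scale the difference was -1.54 ± 0.2 (SE, adjusted p = 0.00021) at 12 h against DMSO and 1.04 ± 0.2 (SE, adjusted p = 0.00171) from 12 h to 96 h, and the gene was not called at 96 h against DMSO. ITGA10, best known from cartilage, was 8.09 and 8.3 in DMSO, then 7.52 and 7.73 (12 h), 7.07 and 7.44 (24 h), 6.65 and 7.06 (48 h), 6.77 and 7.09 (60 h), 6.97 and 7.18 (72 h) and 6.98 and 6.76 (96 h). It was above background on both arrays in DMSO and at 12 h, and on neither from 48 h on. The log2 difference from DMSO at 96 h was -1.32 ± 0.21 (SE, adjusted p = 0.000435), at least 1.73-fold lower. Its fall from 12 h to 96 h (-0.75 ± 0.21 (SE, adjusted p = 0.0165)) was lost without the second 12 h or second 96 h array and without background correction (up to 0.117). ITGA1 and ITGA2 lie on chromosome 5 with 1 gene, PELO, between them in the RefSeq order.

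ITGA4 and ITGA9, related subunits that bind fibronectin, tenascin and the adhesion molecule VCAM-1, were both lower at 96 h. ITGA9 was 9.11 and 9.4 in DMSO, then 8 and 7.81 (12 h), 7.56 and 7.37 (24 h), 7.65 and 7.3 (48 h), 7.46 and 7.65 (60 h), 7.58 and 7.86 (72 h) and 7.75 and 7.5 (96 h). All exposed arrays lay below DMSO. The fitted log2 difference was -1.35 ± 0.2 (SE, adjusted p = 0.000473) at 12 h and -1.63 ± 0.2 (SE, adjusted p = 5.01e-05) at 96 h, 3.09-fold lower. ITGA4 was 9.35 and 8.91 in DMSO, then 8.45 and 8.67 (12 h), 8.69 and 8.95 (24 h), 8.67 and 8.73 (48 h), 8.54 and 8.33 (60 h), 8.12 and 8.43 (72 h) and 8.26 and 8.06 (96 h). Only the 24 h arrays overlapped DMSO. In log2 units the difference was -0.57 ± 0.2 (SE, adjusted p = 0.0695) at 12 h, -0.97 ± 0.2 (SE, adjusted p = 0.00294) at 96 h and -0.4 ± 0.2 (SE, adjusted p = 0.163) from 12 h to 96 h.

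The subunits that bind the RGD sequence of fibronectin and vitronectin, ITGAV and ITGA5, were called neither at 12 h nor at 96 h. ITGAV was 12.49 and 10.81 in DMSO, then 11.03 and 11.1 (12 h), 11.6 and 11.13 (24 h), 12.3 and 11.48 (48 h), 11.89 and 11.65 (60 h), 12.32 and 12.15 (72 h) and 11.7 and 11.5 (96 h). Its 2 DMSO arrays spanned 1.68 log2 units and enclosed the values at 12, 24, 48, 60, 72 and 96 h. Its log2 difference was -0.58 ± 0.41 (SE, adjusted p = 0.373) at 12 h, -0.05 ± 0.41 (SE, adjusted p = 0.936) at 96 h and 0.53 ± 0.41 (SE, adjusted p = 0.377) from 12 h to 96 h. Without the first DMSO array it was 0.25 at 12 h and 0.78 at 96 h. The 95% interval at 96 h ran from -0.95 to 0.84, so differences over that whole range were compatible with these arrays. ITGAE, the partner of beta 7 that binds E-cadherin, was 11.05 and 11.19 in DMSO, then 11.54 and 11.41 (12 h), 11.51 and 11.27 (24 h), 10.78 and 10.94 (48 h), 10.83 and 10.79 (60 h), 10.63 and 10.49 (72 h) and 10.67 and 10.68 (96 h). Its 12 and 24 h arrays lay above both DMSO arrays and all arrays from 48 h on below both. It fell from 12 h to 96 h by a log2 difference of -0.8 ± 0.16 (SE, adjusted p = 0.00259), and against DMSO it was called at 72 h only (-0.56).

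Of 5 tested beta subunits, ITGB5 fell and ITGB8 was higher at 12 h; both are partners of alpha V. ITGB5 was 14.78 and 14.98 in DMSO, then 13.51 and 13.56 (12 h), 14.02 and 13.81 (24 h), 14.21 and 14.29 (48 h), 14.29 and 14.41 (60 h), 14.27 and 14.18 (72 h) and 14.02 and 14.26 (96 h). No exposed array reached DMSO, and the 12 h arrays were lowest. The log2 difference was -1.34 ± 0.17 (SE, adjusted p = 0.000145) at 12 h, -0.74 ± 0.17 (SE, adjusted p = 0.00517) at 96 h and 0.61 ± 0.17 (SE, adjusted p = 0.0155) from 12 h to 96 h. The 96 h call was lost without the first 96 h array and in a fit of those 4 arrays alone, with adjusted p up to 0.0905, and the rise with median scaling and without either 12 h array or the second 96 h array (up to 0.123). The other detected probes of ITGB5 gave log2 differences of -0.46 and -0.41 at 96 h and were not called there (adjusted p = 0.146 and 0.306). ITGB8 was 10.26 and 9.48 in DMSO, then 10.98 and 10.76 (12 h), 11.5 and 11.26 (24 h), 10.25 and 9.82 (48 h), 10.01 and 9.78 (60 h), 9.94 and 9.55 (72 h) and 9.57 and 9.22 (96 h). Its 12 and 24 h arrays lay above both DMSO arrays, and from 48 h on it lay within or below their range. Its mean was highest at 24 h (11.38, beside 9.87 in DMSO), and it was called higher than DMSO at that time. On the log2 scale the difference was 1 ± 0.26 (SE, adjusted p = 0.0193) at 12 h and -1.47 ± 0.26 (SE, adjusted p = 0.000938) from 12 h to 96 h. The 12 h call was lost without the second DMSO array, without either 12 h array, with median scaling, with array weights and in a fit of those 4 arrays alone, with adjusted p up to 0.237. The fall from 12 h to 96 h held under each of its 13 alternatives.

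ITGB1, the beta subunit with the most alpha partners, was 14.67 and 13.35 in DMSO, then 13.85 and 13.96 (12 h), 13.98 and 13.97 (24 h), 14.83 and 14.22 (48 h), 14.47 and 14.21 (60 h), 14.6 and 14.51 (72 h) and 13.9 and 13.51 (96 h). The DMSO arrays spanned 1.32 log2 units and enclosed all but 1 of the exposed arrays. The fitted log2 difference was -0.1 ± 0.34 (SE, adjusted p = 0.871) at 12 h, -0.31 ± 0.34 (SE, adjusted p = 0.533) at 96 h and -0.2 ± 0.34 (SE, adjusted p = 0.703) from 12 h to 96 h, and without the first DMSO array it was 0.56 at 12 h and 0.35 at 96 h. ITGB3, the partner of alpha V that is known from the vertical growth phase of melanoma, was 8.04 and 8.28 in DMSO, then 7.9 and 7.69 (12 h), 7.17 and 7.06 (24 h), 7.61 and 6.92 (48 h), 6.82 and 6.62 (60 h), 7.21 and 7.03 (72 h) and 7.67 and 7.44 (96 h). It was above background on neither array at 24, 60 and 72 h and on 1 of 2 at 48 h, and it was called lower than DMSO at these times. The fall was at least 1.76-fold at 24 h, at least 1.69-fold at 60 h and at least 1.71-fold at 72 h, and the fitted difference at 48 h was -0.89. In log2 units the difference was -0.36 ± 0.22 (SE, adjusted p = 0.301) at 12 h, -0.6 ± 0.22 (SE, adjusted p = 0.0567) at 96 h and -0.24 ± 0.22 (SE, adjusted p = 0.456) from 12 h to 96 h. ITGB2, the leukocyte beta subunit, was not called in any of the comparisons. ITGA2B, ITGA8, ITGAL, ITGAM, ITGAX, ITGB4, ITGB6 and ITGB7, which include the platelet and leukocyte subunits and the beta 4 partner of alpha 6, had no probe above background on 2 arrays.

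**Figure D4:**
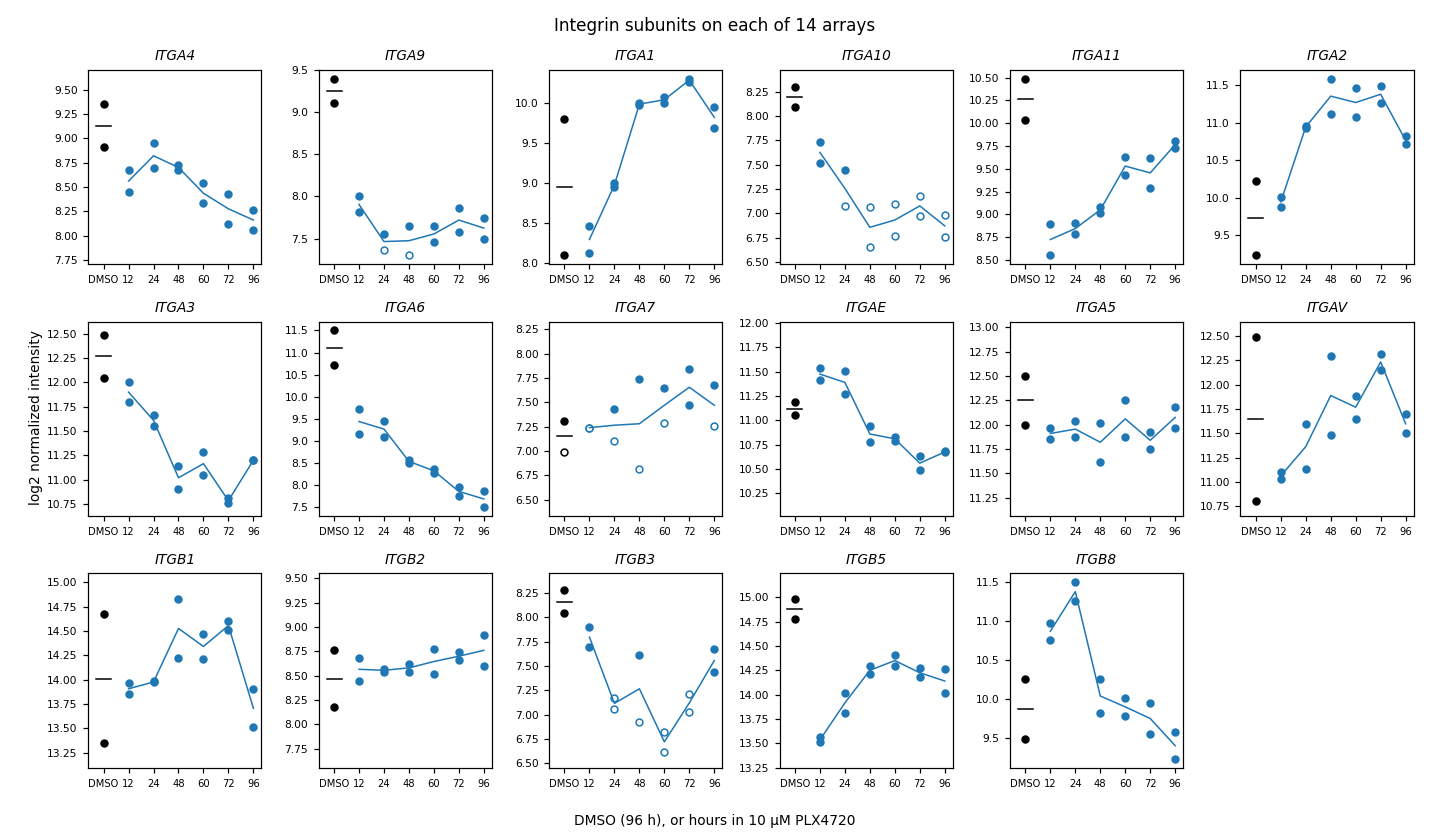
Log2 normalized intensity (vertical axis, each panel with its own range) of the 17 tested integrin subunits on each array, for DMSO at 96 h (black) and for hours in 10 µM PLX4720 (blue, evenly spaced). Points are single arrays, open where the probe was not above background; lines join the means of 2 arrays. ITGA6 falls from 11.5 and 10.71 in DMSO to 7.88 and 7.5 at 96 h, and the DMSO replicates of ITGA1, ITGAV and ITGB1 lie far apart.

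Of the 28 tested collagens, 1 was higher and 8 were lower than DMSO at 12 h, and 11 were higher and 9 lower at 96 h. The shares were 3.57% higher and 28.6% lower at 12 h, beside 9% and 8.26% of all tested genes. At 96 h they were 39.3% and 32.1%, beside 16.4% and 13.5%. Collagen IV, the network collagen of basement membranes, is encoded by pairs of genes that lie head to head and share the stretch between their starts. Of the 4 tested chains, COL4A1 and COL4A2 rose from 12 h to 96 h, though only COL4A2 was called against DMSO at 96 h. COL4A5 and COL4A6 were both lower than DMSO at 96 h but parted otherwise. Their log2 differences were -1.19 and 0.32 at 12 h, and 0.08 and -1.28 from 12 h to 96 h. The stretches are shown because they lie between the starts of the genes of a pair. The first is the whole interval between the starts of COL4A1 (minus strand) and COL4A2 (plus strand), chr13:110307158-110307283, 126 bases. The second is the 250 bases before the start of COL4A5 (plus strand), chrX:108439588-108439837, out of 379 bases between the starts of COL4A6 (minus strand) and COL4A5, so it does not reach the COL4A6 start. Both are RefSeq sequence of build GRCh38.p14, plus strand, 5′ to 3′, with GGGCGG (GC box) and CCAAT, or their reverse complements, in capitals.
COL4A1/COL4A2: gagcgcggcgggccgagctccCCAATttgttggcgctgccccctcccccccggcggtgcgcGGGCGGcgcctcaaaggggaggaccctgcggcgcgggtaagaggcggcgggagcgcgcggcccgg
COL4A6/COL4A5: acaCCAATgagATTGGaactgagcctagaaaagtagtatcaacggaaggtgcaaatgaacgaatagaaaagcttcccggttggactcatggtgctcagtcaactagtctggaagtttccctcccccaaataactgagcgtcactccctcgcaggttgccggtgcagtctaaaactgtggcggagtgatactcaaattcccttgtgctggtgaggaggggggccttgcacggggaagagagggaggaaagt
The first holds 1 GC box and 1 CCAAT, the second 2 CCAAT in opposite orientations and no GC box, and none of these overlap. A match of letters is a description and not a site of binding.

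COL4A1 was 12.75 and 12.48 in DMSO, then 11.87 and 11.98 (12 h), 12.59 and 12.75 (24 h), 13.29 and 13.18 (48 h), 13.44 and 13.47 (60 h), 13.12 and 13.06 (72 h) and 12.92 and 13.09 (96 h). Both 12 h arrays were below DMSO, and all arrays from 48 h on were above it. Its log2 difference was -0.69 ± 0.17 (SE, adjusted p = 0.0122) at 12 h, 0.39 ± 0.17 (SE, adjusted p = 0.0959) at 96 h and 1.08 ± 0.17 (SE, adjusted p = 0.000305) from 12 h to 96 h. COL4A2 was 9.9 and 10.43 in DMSO, then 9.66 and 9.62 (12 h), 10.5 and 10.2 (24 h), 10.32 and 10.63 (48 h), 11.17 and 10.72 (60 h), 10.82 and 10.79 (72 h) and 11.3 and 11.01 (96 h). The order was alike: 12 h lowest, and 60, 72 and 96 h above both DMSO arrays. The log2 difference was -0.52 ± 0.23 (SE, adjusted p = 0.138) at 12 h, 1 ± 0.23 (SE, adjusted p = 0.00513) at 96 h and 1.51 ± 0.23 (SE, adjusted p = 0.000242) from 12 h to 96 h. The rise from 12 h to 96 h held for both genes under each of the 13 alternatives. The 12 h call of COL4A1 was lost without either 12 h array, with array weights and in a fit of those 4 arrays alone (adjusted p up to 0.18), and the 96 h call of COL4A2 with median scaling and without the first 96 h array (up to 0.175). With median scaling the 96 h difference of COL4A1 was -0.06.

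COL4A5 was lower by a log2 difference of -1.19 ± 0.21 (SE, adjusted p = 0.00192) at 12 h and -1.11 ± 0.21 (SE, adjusted p = 0.00169) at 96 h, and its 24 and 48 h means lay between those and DMSO. COL4A6 was 7.95 and 8.03 in DMSO, then 8.14 and 8.49 (12 h), 8.15 and 7.65 (24 h), 7 and 7.26 (48 h), 7.03 and 7.36 (60 h), 6.47 and 6.56 (72 h) and 6.79 and 7.28 (96 h). It was above background in DMSO, at 12 h and at 24 h, and on no array from 48 h on. On the log2 scale the difference was -0.96 ± 0.23 (SE, adjusted p = 0.00706) at 96 h against DMSO, at least 1.5-fold lower, and -1.28 ± 0.23 (SE, adjusted p = 0.000977) from 12 h to 96 h. The 96 h call of COL4A6 was lost with array weights and without the first 96 h array (adjusted p up to 0.0816). COL4A3 and COL4A4 were not above background on 2 arrays.

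Of the 4 tested chains of collagen VI and collagen XXVIII, 4 were called higher at 96 h, where 16.4% of all tested genes were higher. From 12 h to 96 h 2 of them, COL28A1 and COL6A2, rose, beside 15.1% of all genes. COL28A1, a chain related to collagen VI, was 7.07 and 6.97 in DMSO, then 6.46 and 7.15 (12 h), 7.73 and 7.51 (24 h), 9.47 and 9.44 (48 h), 9.62 and 9.78 (60 h), 10.14 and 10.11 (72 h) and 10.1 and 10.08 (96 h). It was not above background in DMSO or at 12 h and was above it on all arrays from 24 h on. The log2 difference from DMSO at 96 h was 3.07 ± 0.21 (SE, adjusted p = 4.96e-07), at least 6.78-fold higher, and from 12 h to 96 h it was 3.28 ± 0.21 (SE, adjusted p = 2.43e-07). The other COL28A1 probe, for the same transcript, was above background on no array, so the rise rests on the probe used. Collagen VI forms beaded microfibrils, and its chains COL6A1 and COL6A2 lie next to each other on chromosome 21. At 96 h, COL6A2 differed from DMSO by 1.27 ± 0.22 (SE, adjusted p = 0.000806) and COL6A1 by 0.62 ± 0.2 (SE, adjusted p = 0.0337). For COL6A2, 2 of 3 detected probes rose at 96 h and the other gave -0.26. The call of COL6A1 was lost under 7 of 13 alternatives, among them median scaling and leaving out the first DMSO array or either 96 h array (adjusted p up to 0.616). COL6A5 was near background, at least 1.12-fold higher at 96 h, with a call lost under 10 of 13 alternatives (adjusted p from 0.0379 to 0.272). The other probes of COL6A5, those for its RefSeq transcript included, were above background on no array. COL7A1, which anchors the epidermal basement membrane to the dermis, had a log2 difference of 1.39 ± 0.19 (SE, adjusted p = 0.00016) at 96 h and 1.52 ± 0.19 (SE, adjusted p = 7.35e-05) from 12 h to 96 h. It was called higher at 48, 60, 72 and 96 h.

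Fibril-associated collagens sit on the surface of fibrils. COL22A1, known from tissue junctions such as those of muscle and tendon, was 8.67 and 8.49 in DMSO, then 8.15 and 8.64 (12 h), 8.91 and 8.79 (24 h), 9.64 and 10.21 (48 h), 10.59 and 10.94 (60 h), 10.86 and 11.3 (72 h) and 11.12 and 11.73 (96 h). The 12 h arrays lay around or below DMSO, and every array from 24 h on was above it. The fitted log2 difference was 2.85 ± 0.27 (SE, adjusted p = 6.37e-06) at 96 h against DMSO, 7.2-fold higher, and 3.03 ± 0.27 (SE, adjusted p = 3.17e-06) from 12 h to 96 h. COL14A1, a chain of soft tissue fibrils, was lower by -0.93 ± 0.24 (SE, adjusted p = 0.0166) at 12 h and -1.08 ± 0.24 (SE, adjusted p = 0.00434) at 96 h; the 12 h call was lost without either 12 h array, with array weights and in a fit of those 4 arrays alone (adjusted p up to 0.162), and the 96 h call with array weights (0.0648). COL12A1 fell from 12 h to 96 h by a log2 difference of -0.72 ± 0.25 (SE, adjusted p = 0.0446), a call lost under 9 of 13 alternatives, among them leaving out any array of either group (adjusted p up to 0.691), and its 2 probes disagreed at 96 h. COL16A1 and COL9A3 were called in no comparison, and the 96 h replicates of COL9A3 differed by 1.15 log2 units.

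Fibrillar collagens, which build the load-bearing fibrils of the dermis and cartilage, had 8 tested members. At 12 h, 1 was higher than DMSO and 2 were lower. At 96 h 1 was higher and 3 were lower, and from 12 h to 96 h 2 rose and 1 fell. The shares were 12.5% higher and 25% lower at 12 h, beside 9% and 8.26% of all tested genes. At 96 h they were 12.5% and 37.5%, beside 16.4% and 13.5%. From 12 h to 96 h, 25% rose and 12.5% fell, beside 15.1% and 14%. COL1A2, a chain of collagen I, was lower than DMSO at all 6 times, by -1.38 ± 0.18 (SE, adjusted p = 0.000255) at 12 h and -0.81 ± 0.18 (SE, adjusted p = 0.00511) at 96 h, the latter lost in a fit of those 4 arrays alone (adjusted p = 0.0595). Its other detected probe gave -2.07 at 12 h, -2.03 at 96 h and 0.04 from 12 h to 96 h (adjusted p = 0.92), so the size at 96 h and the call of 0.56 from 12 h to 96 h differed between the probes. The other chain of collagen I, COL1A1, had no probe above background. COL5A3 and COL5A2, chains of the collagen that starts fibrils, were lower at 96 h by -1.13 ± 0.23 (SE, adjusted p = 0.00248) and -1.11 ± 0.24 (SE, adjusted p = 0.00379), and COL5A3 also at 12 h (-1.27 ± 0.23 (SE, adjusted p = 0.002)). COL27A1, a cartilage chain, was 6.89 and 5.51 in DMSO, then 6.44 and 5.3 (12 h), 7.13 and 6.59 (24 h), 8.13 and 7.74 (48 h), 8.02 and 7.78 (60 h), 7.98 and 8.06 (72 h) and 7.9 and 8.01 (96 h). It was on no array above background in DMSO, at 12 h or at 24 h, and above it on all later arrays. The log2 difference at 96 h was 1.76 ± 0.41 (SE, adjusted p = 0.00586), at least 1.55-fold higher, while the DMSO replicates spanned 1.38 log2 units below background.

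COL24A1, a minor fibrillar chain, was 7.37 and 7.05 in DMSO, then 7.62 and 8.18 (12 h), 7.75 and 7.71 (24 h), 7.77 and 7.69 (48 h), 7.43 and 7.38 (60 h), 7.5 and 7.49 (72 h) and 7.09 and 7.18 (96 h). The 12 h arrays lay above both DMSO arrays, and neither 96 h array was above background. In log2 units the difference was 0.69 ± 0.19 (SE, adjusted p = 0.0274) at 12 h and -0.77 ± 0.19 (SE, adjusted p = 0.00959) from 12 h to 96 h, at least 1.41-fold lower. The 12 h call was lost under 8 of 13 alternatives, among them median scaling, the deposited normalized values, and leaving out the second DMSO or second 12 h array (adjusted p up to 0.27). The fall was lost without the second 12 h array and without the first 96 h array (adjusted p up to 0.134). COL11A1 passed the F test among times (adjusted p = 0.0345), with the highest mean at 48 h and the lowest at 96 h, and was called in no comparison with DMSO with the probe used. Its other 2 detected probes gave calls: 1 was lower at 12 h (-1.63, adjusted p = 0.00269) and at 96 h (-1.25, adjusted p = 0.00802), and the other at 12 h only (-0.89, adjusted p = 0.0437). COL5A1 was called higher at 60 h only (0.72), and COL11A2, near background, was not called.

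The short-chain, multiplexin and transmembrane collagens were split. COL8A1, a network chain of vessel walls and the eye, was 14.03 and 13.43 in DMSO, then 12.13 and 12.29 (12 h), 12.37 and 12.57 (24 h), 12.63 and 12.8 (48 h), 12.48 and 12.54 (60 h), 12.13 and 12.39 (72 h) and 11.87 and 12.16 (96 h). No exposed array reached DMSO. Its log2 difference was -1.52 ± 0.21 (SE, adjusted p = 0.000357) at 12 h and -1.71 ± 0.21 (SE, adjusted p = 6.15e-05) at 96 h, 3.28-fold lower. All 3 detected probes were called lower at 96 h. At 12 h, 1 of them, above background on 3 arrays, gave -0.29 and was not called (limma, adjusted p = 0.484). Its partner chain COL8A2 rose, with 1.05 ± 0.2 (SE, adjusted p = 0.00159) at 96 h and 1.04 ± 0.2 (SE, adjusted p = 0.0015) from 12 h to 96 h. COL15A1, a basement membrane zone collagen, was 10.69 and 10.86 in DMSO, then 7.85 and 7.27 (12 h), 7.37 and 5.43 (24 h), 7.22 and 7.49 (48 h), 7.8 and 7.38 (60 h), 8.17 and 7.84 (72 h) and 9.46 and 9 (96 h). All exposed arrays lay below DMSO, with 96 h nearest to it, and the 24 h replicates differed by 1.94 log2 units. The log2 difference was -3.22 ± 0.45 (SE, adjusted p = 0.000364) at 12 h, 9.3-fold lower with 1 of 2 arrays above background, and -1.54 ± 0.45 (SE, adjusted p = 0.0212) at 96 h. From 12 h to 96 h it rose by 1.68 ± 0.45 (SE, adjusted p = 0.0134). The 96 h call was lost with array weights, without either DMSO array and without the second 96 h array (adjusted p up to 0.201), and the rise without the first 96 h or the second 12 h array (up to 0.106).

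COL18A1, the other multiplexin, from which endostatin is cut, was higher at 96 h by 0.64 ± 0.21 (SE, adjusted p = 0.0384), a call lost under 7 of 13 alternatives, among them median scaling and leaving out the first DMSO array or either 96 h array (adjusted p up to 0.475). COL13A1, a transmembrane collagen of cell junctions, was 8.35 and 8.48 in DMSO, then 7.54 and 6.97 (12 h), 6.79 and 6.43 (24 h), 6.31 and 6.36 (48 h), 6.01 and 6.92 (60 h), 6.2 and 6.75 (72 h) and 6.84 and 6.37 (96 h). It was above background on both DMSO arrays, on 1 array at 12 h and on none later. On the log2 scale the difference was -1.15 ± 0.3 (SE, adjusted p = 0.0195) at 12 h and -1.81 ± 0.3 (SE, adjusted p = 0.000665) at 96 h, at least 2-fold lower. The 12 h call was lost with array weights, without the second DMSO array and without the second 12 h array (adjusted p up to 0.185). COL23A1, also transmembrane, was not above background in DMSO or at 96 h, so its call at 96 h has no fold. COL10A1, COL19A1, COL1A1, COL20A1, COL21A1, COL25A1, COL26A1, COL2A1, COL3A1, COL4A3, COL4A4, COL6A3, COL6A6, COL9A1 and COL9A2 had no probe above background on 2 arrays.

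**Figure D5:**
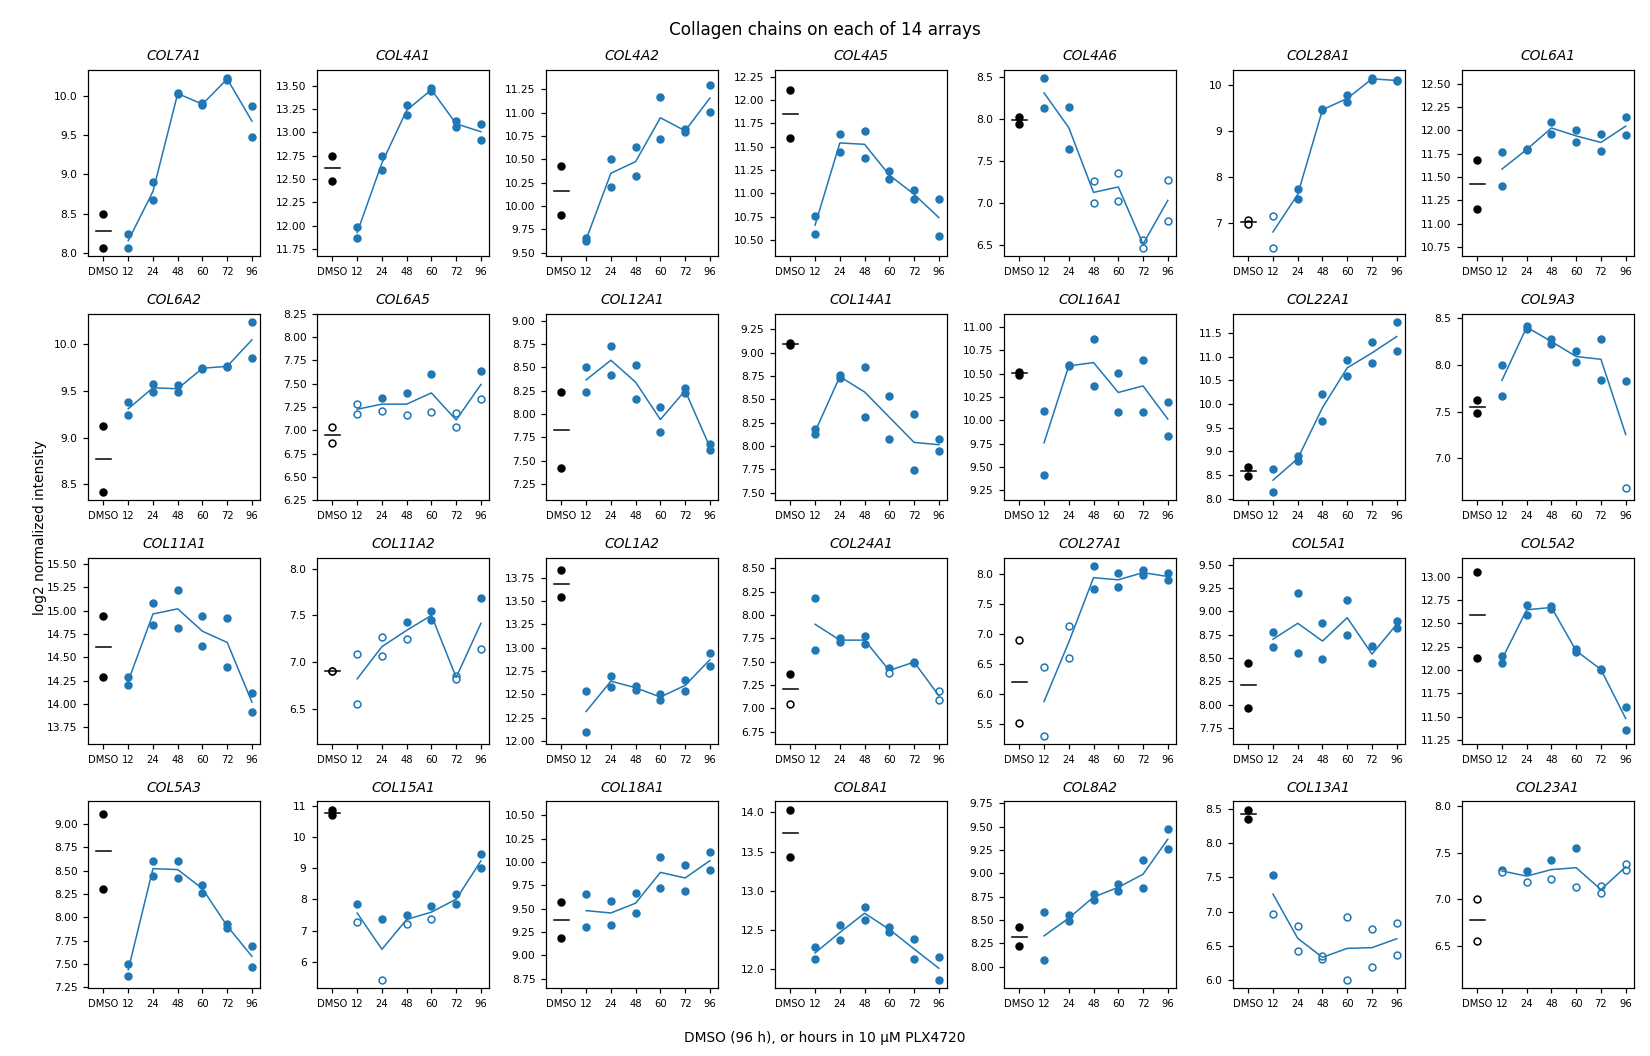
Log2 normalized intensity (vertical axis, each panel with its own range) of the 28 tested collagen chains on each array, for DMSO at 96 h (black) and for hours in 10 µM PLX4720 (blue, evenly spaced). Points are single arrays, open where the probe was not above background; lines join the means of 2 arrays. COL28A1 and COL22A1 climb from 24 h on, and COL8A1 and COL15A1 stay under DMSO on all exposed arrays.

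Among the 16 members with more than 1 probe above background, all probes moved in the same direction at 96 h for 13, the exceptions being COL6A2, COL12A1 and LAMA1. RefSeq promoter windows of 300 bases, from 250 before a start, were matched for 39 of the 53 tested members. GGGCGG was present on either strand in 28 of the 39 (71.8%), beside 48.3% of 27305 genes. CCAAT was present in 12 (30.8%, beside 39.7%), the AP-1 sequence TGANTCA in 2, ITGA5 and LAMB3 (5.13%, beside 9.37%), and the E-box CACGTG in 1, ITGA6 (2.56%, beside 8.77%). Of the members higher at 96 h that had a window, 9 of 11 held GGGCGG, and of those lower 6 of 11. These are shares of letters in windows, and no test was made of them.

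Genes that process collagen, other matrix genes, the adhesion complex and other matrix receptors moved in both directions. Of all tested genes, 9% were higher and 8.26% lower at 12 h, and 16.4% and 13.5% at 96 h. Whether the lists differ from those shares was not tested. Of 24 tested collagen processing genes, none was higher and 8 were lower at 12 h, and 4 were higher and 8 lower at 96 h. BMP1, which cuts procollagen ends, rose at 96 h by 2.88 ± 0.23 (SE, adjusted p = 1.48e-06), and LOXL3 by 1.25 ± 0.21 (adjusted p = 0.000618). LOX and LOXL4, which like LOXL3 crosslink collagen, had differences of -2.03 ± 0.19 (adjusted p = 5.04e-06) and, for LOXL4, at least 6.56-fold lower with no 96 h array above background (adjusted p = 2.11e-06). Of 23 other matrix genes, 2 were higher and 5 lower at 12 h and 8 higher and 4 lower at 96 h. The matrix protein MATN2 rose by 2.54 ± 0.2 (adjusted p = 1.63e-06) and THBS1 by 2.37 ± 0.2 (adjusted p = 2.38e-06), while THBS2 and the proteoglycan VCAN gave -2.27 ± 0.17 (adjusted p = 8.17e-07) and -1.98 ± 0.25 (adjusted p = 6.75e-05).

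Of 28 genes of the adhesion complex inside the cell, 3 were higher and 4 lower at 12 h and 5 higher and 7 lower at 96 h. The counts higher were close to the share of all genes, 9% at 12 h and 16.4% at 96 h. LIMS2, a partner of integrin-linked kinase, was higher at 96 h by 2.2 ± 0.3 (adjusted p = 0.000113) and TNS3 by 1.24 ± 0.17 (adjusted p = 0.000116). The scaffold NEDD9 gave -2.8 ± 0.21 (adjusted p = 1.21e-06) and the actin crosslinker ACTN1 -1.61 ± 0.18 (adjusted p = 3.16e-05). Of 13 other matrix receptors, 1 was higher and 1 lower at 12 h, and 3 were higher and 1 lower at 96 h. At 12 h both counts were close to the shares of all genes, 9% higher and 8.26% lower. The syndecan SDC4 rose by 1.41 ± 0.27 (adjusted p = 0.00155) and the tetraspanin CD9 by 0.84 ± 0.23 (adjusted p = 0.014), and the collagen receptor kinase DDR2 gave -0.71 ± 0.23 (adjusted p = 0.036). Median scaling ended the calls of SDC4 (adjusted p = 0.0587) and CD9 (adjusted p = 0.366). The call of DDR2 was lost under alternatives that included the mean of its probes (adjusted p = 0.481) and leaving out the first DMSO array (0.193), the first 96 h array (0.114) or the second 96 h array (0.125), and that of CD9 without the first DMSO array (0.074) or the first 96 h array (0.126).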

How the data were processed

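WM9 cells were profiled on Illumina arrays with biotin-labelled RNA, per the labels' protocols. The deposited unnormalized file holds linear signal intensity for 47322 probes on 14 arrays, with no detection p-values, and its 28 columns without values were not used. The deposited normalized values are on a log2 scale; their sorted columns differ by at most 0.01, so they are quantile normalized, and they served as an alternative. The scanner software is not given in the sources used here.

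Background was modelled per array as a normal around the mode, with the spread of the signals under the mode, and a probe counted as above it past the 1% upper tail. Intensities were corrected by normexp (offset 16), quantile normalized and taken to log2. Each of 12742 genes was represented by its brightest probe above background on at least 2 arrays. limma 3.58.1 in R 4.3.3 (lmFit, eBayes, all 7 groups, 7 residual and 5.86 prior degrees of freedom) gave 2-sided p-values, adjusted by Benjamini-Hochberg over all genes. With 2 arrays per group, their number limits the precision. For a probe that both arrays of a group left under background, the fold is a bound, taken from the bright group's mean over, per array, the lowest signal above background or the dim value itself if that was higher. The p-values rest on 1 spread per gene, pooled over the 2 biological replicates of all 7 groups and drawn toward that of other genes. They do not measure the spread within the 2 compared groups alone. The DMSO replicates lay further apart (SD of the replicate difference 0.559, beside 0.301 to 0.348). The shared SE may therefore be too small in comparisons with DMSO.

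Symbols came from the platform annotation, updated by gene identifier to RefSeq GRCh38.p14 (30074 of 30113 probes with 1 gene matched; 8 probes with several genes and 17201 unnamed probes were not used). Of the matching symbols, 4 were left out: the pseudogenes LAMB2P1, COL6A4P1 and COL6A4P2, and ITGAD, which the rule does not list. Promoter sequences are from RefSeq GRCh38.p14. The fit was tested on simulated data. Members, gene lists and alternatives were chosen with earlier results of these data known. Full values are given, in each family, for the 3 largest rises and falls called at 96 h, for the 2 largest called at 12 h and between 12 h and 96 h, and for ITGB1, ITGAV, ITGB3, ITGA4, COL4A1, COL4A2 and LAMC1; pathway lists name their 2 largest rises and falls at 96 h. Alternatives were median scaling, the deposited normalized values, offset 50, no background correction, no filter, the mean of a gene's probes, array weights, replicate number as a block, each array left out, and the compared arrays alone.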

Additional observations from a re-analysis of the deposited data

Results flagged for a closer look

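The difference from DMSO at 96 h was set against that at 12 h for each tested member. Because the DMSO arrays cancel, this is the comparison of 96 h with 12 h. Tested by limma, 25 of 53 members had an adjusted p below 0.05, where 15.1% of all tested genes rose and 14% fell. On the log2 scale, 96 h minus 12 h, the collagens that rose were COL28A1 (3.28), COL22A1 (3.03), COL27A1 (2.09), COL15A1 (1.68), COL7A1 (1.52), COL4A2 (1.51), COL4A1 (1.08), COL8A2 (1.04), COL6A2 (0.73) and COL1A2 (0.56). The laminins were LAMB2 (2.27), LAMA2 (1.61) and LAMC1 (0.90), and the integrin subunits ITGA1 (1.53), ITGA11 (1.04), ITGA2 (0.82) and ITGB5 (0.61). The members that fell were ITGA6 (-1.75), ITGB8 (-1.47), COL4A6 (-1.28), ITGAE (-0.80), COL24A1 (-0.77), ITGA10 (-0.75), COL12A1 (-0.72) and ITGA3 (-0.70). COL28A1, COL27A1 and LAMA2 were not above background at 12 h, and COL4A6, COL24A1 and ITGA10 not at 96 h, so their values are fitted differences and no folds. Other detected probes did not always bear out a call. A second probe of COL1A2 gave 0.04, that of COL12A1 0.43, and that of ITGA6 -0.85 (limma, adjusted p = 0.155). For COL6A2, 1 other probe gave 0.89 and 1 gave -0.33. The other detected probes of COL8A2, ITGB5 and LAMA2 rose as well. The calls of COL12A1, COL15A1, COL1A2, COL24A1, COL6A2, ITGA1, ITGA10, ITGA2, ITGA3 and ITGB5, 10 of the 25, were lost under at least 1 of 13 alternatives.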

How the results depend on the processing

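Over their alternatives the counts of members called ranged from 12 to 24 at 12 h, 24 to 37 at 96 h, 17 to 27 between 12 h and 96 h, and 21 to 37 in the F test, all within 1.5 times the counts reported. At 24 h array weights called 11 members in place of 18; the counts were otherwise 14 to 24 at 24 h, 18 to 32 at 48 h, 20 to 30 at 60 h and 22 to 33 at 72 h. Without the first DMSO array, 5 members were higher and 19 lower at 12 h and 13 and 17 at 96 h; without the second, 1 and 18, and 14 and 20. With the replicate block, 21 members were called at 12 h, 37 at 96 h, 27 between 12 h and 96 h and 33 in the F test. The shares of all genes called under each of these alternatives are not given here. The counts under the alternatives therefore do not show whether the members stayed above or below the shares of all genes. Replicate differences correlated at 0.15 to 0.41 among PLX4720 groups and -0.2 to 0.42 between DMSO and them; with 2 numbers, which the labels tie to no batch, pairing was not established. Of called members, 12 of 17 at 12 h, 20 of 31 at 96 h and 15 of 25 between 12 h and 96 h were called under all 13 alternatives, and 0 changed sign. Among members not called, COL4A1 at 96 h was -0.06 with median scaling. Leaving out 1 array gave ITGAV -1.42 to 0.25 at 12 h and -0.89 to 0.78 at 96 h, and ITGB1 -0.76 to 0.56 at 12 h and -0.96 to 0.35 at 96 h; the cause was not tested. Signal over background limits COL23A1 and COL6A5, whose calls at 96 h were lost under 10 of 13 alternatives.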
